A study of Mus musculus with 8 samples.

Results

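The mRNAs of the cytosolic ribosomal proteins were compared between ventricles of mice bred to delete the transcription factors Sox5 and Sox6 in heart muscle cells and ventricles of control mice. A locus of the gene table was taken as a member when a part of its symbol was Rpl or Rps followed by a number, Rplp0, Rplp1, Rplp2 or Rpsa, with the S6 kinases and numbered pseudogene symbols left out. This gave 85 of 23100 loci, of which the authors' Cuffdiff run tested 83 among 12133. All 77 canonical symbols searched were found once each. The other 8 loci were counted as paralogs, including Rps4y2, which RefSeq lists as a transcribed pseudogene. The animals were 4.5 months old, with 4 per genotype. Control animals (Ctrl) were Sox5fl/fl and Sox6fl/fl and carried no Cre (aMHC-Cre neg), and double knockout animals (DKO) had the same floxed alleles with aMHC-Cre, a recombinase driven by a promoter active in cardiomyocytes. Ventricles were taken without atria, and non-muscle cells of the ventricle keep both Sox genes. The series title names pressure overload, but no operation is labelled for any of the 8 mice, and Cre cannot be told apart from the deletion because Ctrl lacked it. Each table holds 1 FPKM value per genotype (fragments scaled by transcript length and by library size), so no value carries an error per animal, and the depth behind it is unknown.

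A ribosome is built from a small (40S) and a large (60S) subunit, each of ribosomal RNA and a fixed set of proteins that mostly enter as 1 copy each. The genes of these proteins are expressed in all cells and are regulated largely together, in part by translation: their mRNAs start with a run of pyrimidines, the terminal oligopyrimidine or TOP motif, through which the kinase mTOR controls their use. Growth of heart muscle is accompanied by ribosome production, and striated muscle also expresses Rpl3l, a paralog that takes the place of Rpl3 in the 60S subunit. Many of these genes carry small nucleolar RNAs (snoRNAs) in their introns, and mammalian genomes hold many retrotransposed copies of them, called processed pseudogenes.

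In the gene table Sox6 had 1.69 FPKM in DKO against 3.39 in Ctrl (q = 0.00158 by Cuffdiff, from the authors' deposited table). Sox5 was at 0.497 and 0.369 FPKM and was not tested, so it does not check its label. Heart muscle in the tissue was shown by 13 of 13 cardiomyocyte markers, the lowest of which, Ryr2, had a mean of 219 FPKM. The absence of atria was not checked.

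The ribosomal protein mRNAs as a set were at almost the same level in both genotypes. Of the 83 tested members, 2 rose in DKO, Rps2 and Rpl3, and none fell, by the authors' Cuffdiff test at a q of at most 0.05. This is 2.41% of the members, where 7.36% of all tested genes were called, 4.3% higher and 3.06% lower. An unadjusted p under 0.05 was listed for 5 members (6.02%) and for 16.5% of all tested genes. The median log2 ratio of DKO over Ctrl was -0.025 over the members and -0.0042 over all tested genes. Ratios were above 0 in 33 members and below 0 in 50. The ratios also lay close together. A fold of at most 1.1 either way was found for 66 of 83 members (79.5%) and for 59.1% of all tested genes. The middle 50% of members spanned 0.12 log2 units, against 0.22 for all tested genes. This closeness was not particular to the members: 87.5% of 40 ribosome biogenesis factors, 88.9% of 36 translation initiation factors and 80.0% of 15 elongation, release and other TOP genes lay within 1.1-fold. Among the 81 members that were not called, the lowest q in the authors' deposited table (Cuffdiff) was 0.0917, and 77 of them had a q of at least 0.5. Among genes with a mean of at least 1 FPKM, which all 83 members had, 7.23% were called. These shares describe the set and are no test of it.

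**Figure D1:**
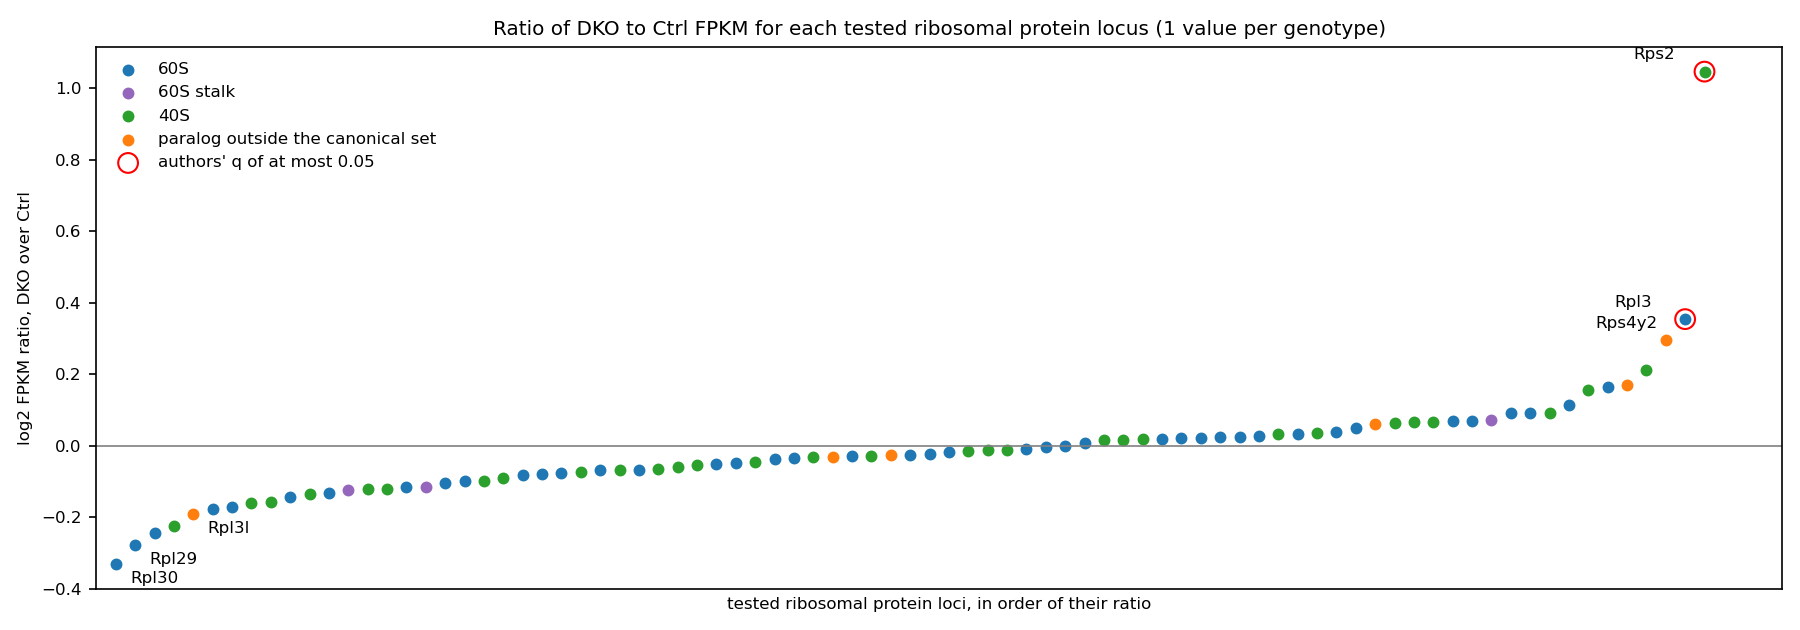
Log2 ratio of DKO over Ctrl FPKM (vertical axis) for the 83 tested ribosomal protein loci, in order of their ratio, with 60S, stalk, 40S and paralog members in separate colours and red rings around the 2 loci with an authors' q of at most 0.05. Most points lie near 0, from -0.33 for Rpl30 upward, while Rpl3 at 0.35 and Rps2 at 1.05 stand at the upper end.

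**Figure D2:**
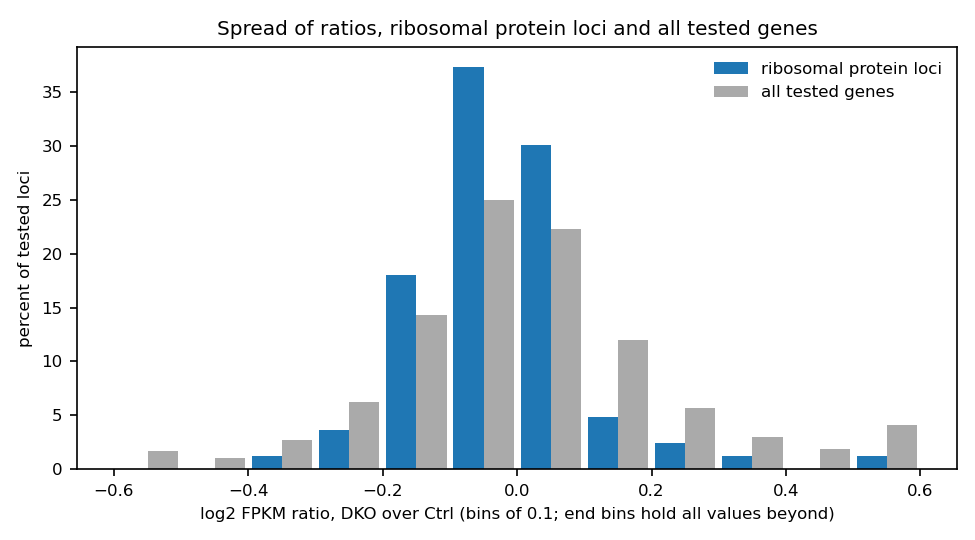
Percent of tested loci (vertical axis) in each log2 ratio bin of 0.1 (horizontal axis), for ribosomal protein loci in blue and all tested genes in grey, with the end bins holding all values beyond them. The bins from -0.1 to 0 and from 0 to 0.1 hold 37.3% and 30.1% of the ribosomal protein loci, against 25.02% and 22.3% of all tested genes.

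The subunits gave like values. Of the 43 canonical 60S members outside the stalk, 1 rose and none fell, with 26 ratios below 0 and a median log2 of -0.022. Of the 31 members of the 40S subunit, 1 rose and none fell, with 19 ratios below 0 and a median of -0.028. Examples at the middle of each subunit were Rpl14 of the 60S, at 140.4 FPKM in DKO against 142.9 in Ctrl, Rpl32, a further 60S protein, at 304 and 309 FPKM, and Rps4x, the X-linked form of a 40S protein, at 89.6 and 91.4 FPKM. Rps6, the 40S protein that S6 kinase phosphorylates when growth signals are active, was listed at 6.19 and 6.33 FPKM. The stalk proteins, which recruit elongation factors to the 60S, were among the highest members. Rplp2 had 567 FPKM in DKO against 615 in Ctrl, Rplp1 had 539 and 513, and Rplp0, the base of the stalk, had 184 and 200.3. None of the 3 was called, and their lowest q in the authors' deposited table (Cuffdiff) was 0.581. Proteins of the ribosome that carry other symbols gave like values: Fau was at 166.1 and 165.3 FPKM and Gnb2l1, the scaffold protein of the 40S, at 303 and 309, and neither was called.

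Rps2 was the member that differed most. This 40S protein sits at the channel through which mRNA enters the ribosome. Its locus had 75.8 FPKM in DKO against 36.7 in Ctrl, a 2.07-fold rise (log2 of 1.05, with q = 0.00158 by Cuffdiff, from the authors' deposited table). In mm9 the locus lies on chromosome 17 at 24857008 to 24858872, and it holds 1 isoform, 1 start site group and 1 coding sequence. Each of these repeats the same FPKM, and their q values of 0.00312, 0.00223 and 0.00226 in the authors' deposited tables (Cuffdiff) are therefore no further evidence. Its host transcript carries the snoRNA Snora64, listed apart at 57.9 FPKM in DKO against 71.3 in Ctrl (q = 0.977 by Cuffdiff, from the authors' deposited table). Its neighbour Ndufb10, a subunit of respiratory complex I, was at 974 and 1115 FPKM and was not called, and Rpl3l begins 5902 bases past the end of Rps2. These neighbours were chosen after their values were seen. A rise was thus called for Rps2 and not for Snora64, Ndufb10 or Rpl3l.

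Much of the Rps2 transcript is also written elsewhere in the genome, which bears on how its reads can be assigned. Of its 50-base stretches (50-mers), 79.0% occurred letter for letter, on either strand, in transcripts of other genes of the GENCODE M21 annotation (GRCm38) that do not overlap it. These were 71 genes, all 71 annotated as pseudogenes. For Rpl3 the share was 85.6%, over 26 pseudogenes. The coding stretches that most other genes hold are shown here because they cannot be placed at the parent gene by sequence alone, with positions counted from 1 at the first base of the start codon. The Rps2 stretch spans coding bases 653 to 702 and occurs in 33 other genes, and the Rpl3 stretch spans coding bases 527 to 576 and occurs in 16.
Rps2: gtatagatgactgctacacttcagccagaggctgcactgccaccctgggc
Rpl3: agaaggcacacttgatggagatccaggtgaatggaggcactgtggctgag
How the authors' tools split reads between such copies is not stated in the sources used here, so the single values of Rps2 and Rpl3 are uncertain. Sharing of this extent was not limited to the called members. It was at least 75% in 20 tested members, and both called members were among these. The other 18 of them were not called and had log2 ratios from -0.23 to 0.21. Their q values were at least 0.5 in the authors' deposited table (Cuffdiff). No member with less sharing was called. The middle 50% of the 20 members spanned 0.16 log2 units. This span was 0.12 at under 25% sharing, 0.12 at 25% to under 50% and 0.094 at 50% to under 75%. The part of shared sequence in the values of Rps2 and Rpl3 was not tested.

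Rpl3, a core 60S protein near the peptidyl transferase centre, had 27.3 FPKM in DKO against 21.3 in Ctrl, a 1.28-fold rise (log2 of 0.35, with q = 0.0247 by Cuffdiff, from the authors' deposited table). Its locus is on chromosome 15 at 79908211 to 79913836 in mm9. It too has 1 isoform, 1 start site group and 1 coding sequence, so that the q values of 0.0483, 0.0338 and 0.0355 at those levels, in the authors' deposited tables (Cuffdiff), rest on the same FPKM. Rpl3l, the striated muscle paralog, had 222 FPKM in DKO against 253 in Ctrl, a log2 ratio of -0.19. Rpl3l was not called (p = 0.0387 and q = 0.257 by Cuffdiff, from the authors' deposited table). The paralog therefore stood above Rpl3 in both genotypes, by 8.13 times in DKO and 11.9 times in Ctrl on the FPKM scale. As a share of the summed FPKM of the pair, Rpl3l made up 89.0% in DKO and 92.2% in Ctrl. The difference between these shares was not tested, since no value per animal is at hand. Of the Rpl3 50-mers 85.6% occurred in other genes, and none of those of Rpl3l did. The ratios and shares of the pair therefore carry the uncertainty of the Rpl3 value.

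**Figure D3:**
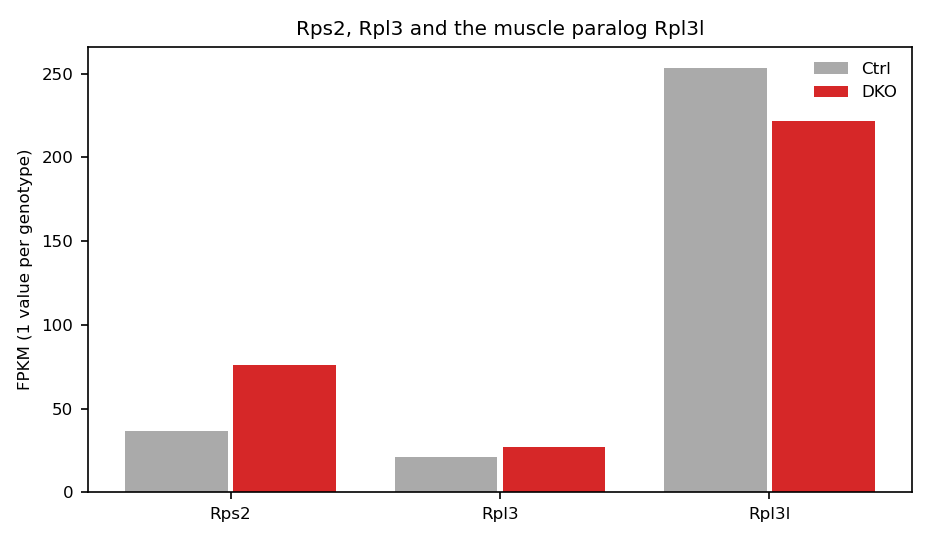
FPKM (vertical axis, from 0) of Rps2, Rpl3 and Rpl3l in Ctrl (grey bars) and DKO (red bars), 1 pooled value per genotype with no error bar. Rps2 stands at 75.8 in DKO and 36.7 in Ctrl, Rpl3 at 27.3 and 21.3, and Rpl3l at 222 and 253.

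Reads of Rpl3 and Rpl3l can be told apart from each other by sequence, which does not bear on reads that Rpl3 shares with its pseudogenes. Their coding sequences of 1212 and 1224 bases were identical at 73.9% of 1212 aligned bases, with no identical run longer than 22 bases and no 50-mer in common. The first 60 coding bases from the GENCODE M21 transcripts show how the 13 differences are spread, with the differing bases in capitals.
Rpl3: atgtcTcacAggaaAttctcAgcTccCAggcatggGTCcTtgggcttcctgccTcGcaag
Rpl3l: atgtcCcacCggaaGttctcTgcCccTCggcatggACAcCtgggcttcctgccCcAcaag
No 50-mer of Rpl3l was found in any other GENCODE gene. The Rpl3l locus, on chromosome 17 at 24864774 to 24873094 in mm9, was listed with 6 isoforms. The most abundant, of 1372 bases, had 137.0 FPKM in DKO against 148.8 in Ctrl, and one of 980 bases was at 49.2 and 57.2. Of the 6 isoforms 5 were lower in DKO, the exception being one of 989 bases at 3.64 and 0.0168 FPKM, and none was called.

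Of the other paralogs, 5 were tested and none was called. Rps27l, a p53-responsive paralog of Rps27, had 109.0 FPKM in DKO against 96.9 in Ctrl (log2 of 0.17). Rps27 itself, of which 98.6% of 50-mers lie in other genes, was listed at 8.84 and 7.63 FPKM. Rpl22l1, the paralog of Rpl22, was at 38.8 and 39.6 FPKM, Rpl36al at 59.8 and 57.3, and Rpl7l1, a relative of Rpl7, at 20.2 and 20.6. These 3 differed by less than 1.1-fold between genotypes, as the middle members of both subunits did. Rps4y2, which RefSeq lists as a transcribed pseudogene under the symbol Rps4l, was at 20.6 and 16.8 FPKM (log2 of 0.29, with q = 0.891 by Cuffdiff, from the authors' deposited table). Its locus was listed from 147995938 to 148392874 on chromosome 6 in mm9, a wide span for its 1 isoform of 941 bases. Rpl10l and Rpl39l, known from testis, were not tested. Rpl10l was at 0.0235 FPKM in DKO and listed at 0 in Ctrl, and Rpl39l was at 0.172 and 0.0793 FPKM.

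At 4 loci the listed total was not that of the ribosomal protein mRNA alone. The Rpl22 locus had the highest total of all members, 1974 FPKM in DKO and 2021 in Ctrl, but a transcript of 154 bases held 1916 and 1963 of it. The Rpl22 mRNA of 2040 bases was at 57.4 and 58.2 FPKM. At the Rpl13a locus the total was 483 against 572 FPKM, a log2 of -0.24 (p = 0.0165 and q = 0.146 by Cuffdiff, from the authors' deposited table). The 2 Rpl13a transcripts summed to 374 FPKM in DKO and 374 in Ctrl. The difference of the total thus came from the small RNAs of the locus, Snord33 of 82 bases at 109.0 and 138.9 FPKM and Mir5121 of 74 bases, listed at 0 in DKO and at 58.5 in Ctrl. The Rpl30 locus had the lowest listed ratio, at 56.4 and 71.0 FPKM (log2 of -0.33, with q = 0.0917 by Cuffdiff, from the authors' deposited table). Its total was made up mostly of the transcript listed as Gm12191, at 41.4 and 54.0 FPKM. The Rpl30 mRNAs of 575 and 519 bases were at 11.4 and 12.8 and at 3.597 and 4.190 FPKM, and none of the 3 transcripts was called. The transcripts listed as Rpl30 alone summed to 14.98 and 17.001 FPKM (log2 of -0.18), and by own transcripts Rpl29 and not Rpl30 had the lowest ratio. How reads were divided between Gm12191 and Rpl30 is not known here, so this split is less certain than the total. The Rpl34 locus was at 126.2 and 112.5 FPKM, of which the pseudogene Rpl34-ps1 held 13.2 and 9.86. Rpl29, a 60S protein, was at 20.02 and 24.3 FPKM (log2 of -0.28, with q = 0.303 by Cuffdiff, from the authors' deposited table).

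**Figure D4:**
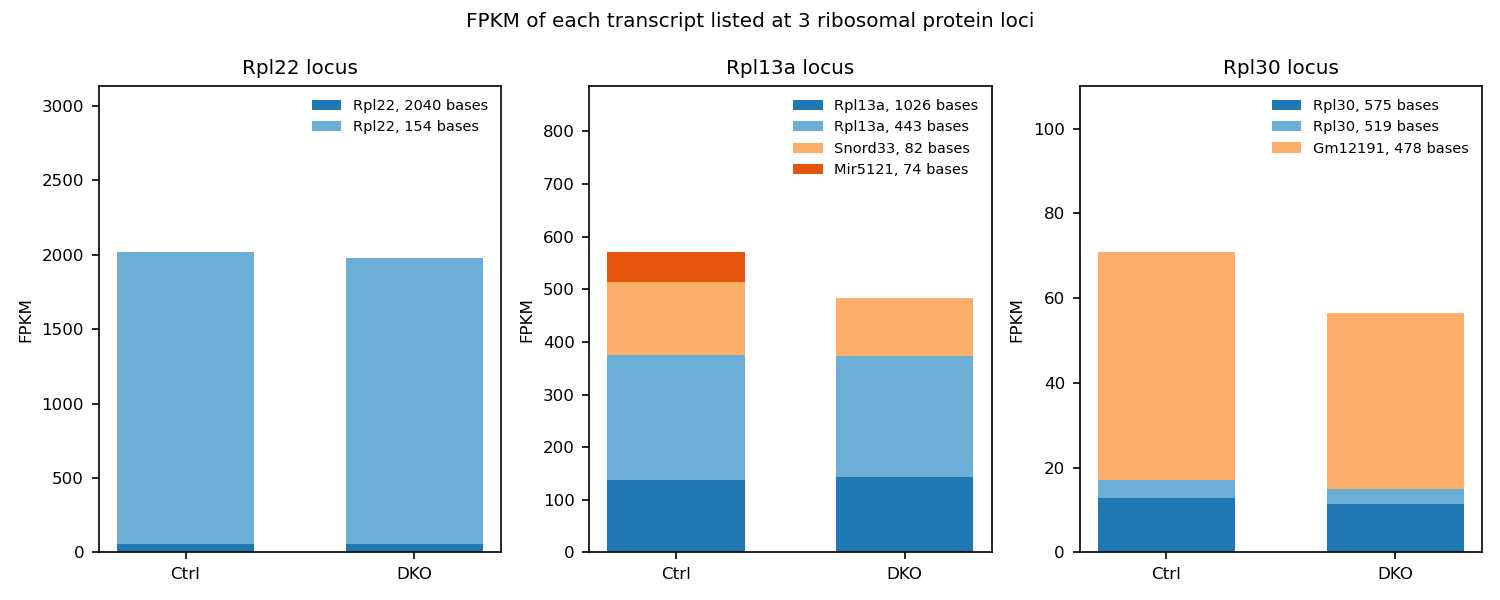
Stacked FPKM (vertical axis, from 0, with its own scale per panel) of each transcript listed at the Rpl22, Rpl13a and Rpl30 loci in Ctrl and DKO, named by gene and length in bases. The blue parts of Rpl13a reach 374 FPKM in both genotypes, the 154-base transcript makes up nearly the whole Rpl22 bar, and Gm12191 makes up most of the Rpl30 bar.

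At the level of single transcripts, the member loci held 123 isoforms, of which 114 were tested and 2 were called, both higher, against 3.02% of all tested isoforms (1.9% higher and 1.12% lower). The tables of start site groups and coding sequences likewise called 2 of 95 and 2 of 84 tested features of the members, all higher. Of all start site groups 4.94% were called (2.95% higher and 1.99% lower), and of all coding sequences 4.64% (2.98% higher and 1.66% lower). In each of the 3 tables these were the features of Rps2 and Rpl3. More than 1 isoform was listed at 24 loci, and 18 isoforms at 14 loci were splice forms of Cufflinks class j, which do not match an annotated transcript. Isoforms of a single gene could have ratios of opposite sign while the gene total was near equal, with none of them called. Chosen after their values were seen, Rps3a of the 40S had an isoform of 943 bases at 5.99 FPKM in DKO against 13.7 in Ctrl and one of 915 bases at 49.9 and 41.6, while its total was at 55.9 and 55.3. Rpl35a of the 60S had isoforms of 490 bases at 23.9 and 13.1 FPKM and of 506 bases at 14.3 and 21.97. The lowest q of these 4 isoforms in the authors' deposited table (Cuffdiff) was 0.303. Overlapping isoforms share most reads, which a model divides among them, so their values are less certain than totals.

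Although each protein enters the ribosome in a fixed number, the listed mRNA levels differed widely between genes on the FPKM scale, which is per length. The following levels count only the member's own transcripts of at least 200 bases, averaged over the genotypes. They ran from 2.37 FPKM for Rpl27 to 699 FPKM for Rps3, a 294-fold range, with a median of 56.2. Most of the Rps3 level, a protein of the mRNA entry channel, came from a class j transcript of 346 bases at 541.7 FPKM in DKO and 597.8 in Ctrl. Its annotated mRNA of 1878 bases was at 127.8 and 129.7 FPKM, which would place Rps3 at rank 24 of 83. With Rps3 at that level the highest member was Rplp2 at 591 FPKM and the range was 249-fold. After Rplp2 came Rplp1, Rps21 and Rps15. Rpl27, Rps23, Rpl28, Rpl10 and Rpl21 were the lowest, between 2.37 and 5.47 FPKM. In all, 12 members were under 10 FPKM and 29 at 100 FPKM or more. Rps6, Rps12 and Rpl10, which are needed in every ribosome, were thus listed at 6.26, 5.87 and 4.15 FPKM, below the paralog Rpl22l1. With no spread over animals, the order of members with near levels cannot be settled.

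The listed level tended to be lower where more of the transcript was shared with other genes. The median share of 50-mers found in other genes was 51.7%, and the median number of genes that shared at least 1 was 10. The 12 tested members with less than 25% sharing had a median of 170.2 FPKM, from 10.4 for Rps15a to 699 for Rps3, and 103.0 over the 11 without Rps3, which is close to the next class. This class includes members matched to transcripts of unlike length. Rps20, at 260.9 FPKM, had its share of 7.57% counted over 3706 bases, while the authors' isoform has 502. For Rpl39 these lengths were 612 and 394 bases, and for Rps3 489 and 346. Class medians without such members were not computed, so the lead of this class is uncertain. The 28 members from 25% to under 50% had a median of 101.3 FPKM and the 23 from 50% to under 75% had 55.0. The 20 members with at least 75% had a median of 29.7 FPKM, the lowest being Rpl10 at 4.15. The rank correlation of share and level over the 83 members was -0.39 (Spearman), given as a description, since genes share libraries and copies and are not independent replicates. It was -0.37 without Rps3, -0.30 with 36-mers, -0.48 with 75-mers, and -0.30 over the 68 members whose matched GENCODE transcript was within 100 bases of the authors' isoform. Low levels were also listed at moderate sharing, as for Rpl27 at 53.0% and Rpl21 at 26.2%. The Spearman correlation of share with the size of the log2 ratio between genotypes was 0.10, on locus totals and not own transcripts alone. Both called members were in the class of at least 75%. The part of read assignment in the levels was not tested. Genes named here for their level or sharing were chosen after their values were seen.

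**Figure D5:**
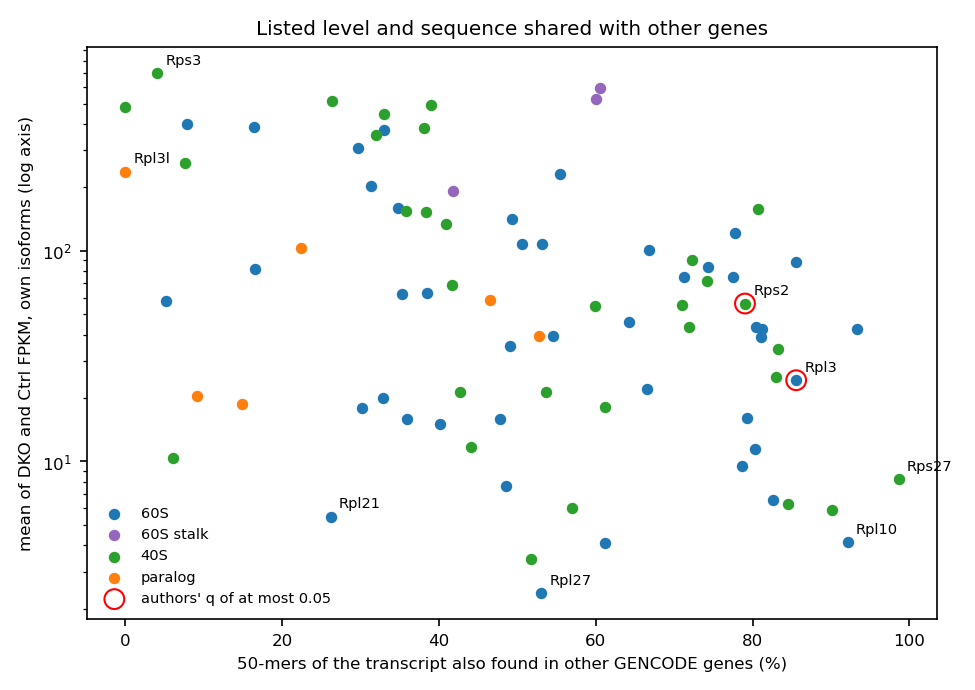
Mean of DKO and Ctrl FPKM of each member's own transcripts (vertical log axis) against the percent of its 50-mers found in other GENCODE genes (horizontal axis), 1 point per tested member, coloured by subunit, with red rings around Rps2 and Rpl3. Points fall from the upper left, where Rps3 and Rpl3l lie, to the lower right, where Rpl10 and Rps27 lie, with wide scatter such as Rpl21 and Rpl27.

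The snoRNAs hosted by these genes were listed at loci of their own in most cases. Of 30 snoRNA loci at 22 member loci, 17 were tested and none was called by Cuffdiff at a q of at most 0.05, with none at an unadjusted p under 0.05 and a lowest q of 0.581 in the authors' deposited table. Of the 17 tested ones, 7 were higher and 10 lower in DKO, and 3 of the 10 (Snora21, Snord72 and Snord83b) were listed at 0 in DKO. The other 14 had log2 ratios from -0.66 to 2.92. Snord100 of the Rps12 locus, a guide RNA for ribosomal RNA modification, was at 297 FPKM in both. Snord83b of the Rpl3 locus was listed at 0 in DKO and 109 in Ctrl, and Snord35a of the Rpl13a locus was at 162.6 and 21.5, both without a call. RNAs of this length are hardly kept by libraries for mRNA, and FPKM scales few reads on a short RNA to large values, so the listed differences have no measured precision. These snoRNAs were chosen after their values were seen.

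The annotated start sites were searched for the TOP motif, taken as a C followed by at least 4 bases that are each C or T, on the gene's strand at the start base of the RefSeq promoter table (GRCm38.p6). The table held 61 of the 83 tested members. The motif stood exactly at the start in 13 of 61 members (21.3%) and in 3.01% of 27025 genes. With a start anywhere within 10 bases of the annotated one, a choice made after seeing the data, it was found in 37 members (60.7%) and 34.4% of genes. The 37 had a median log2 ratio of -0.013 and the other 24 members of -0.033. Starts are shown for the 4 members with the highest level among the 13, with the run in capitals, and for Rps2 and Rpl3l, which have no run at the annotated base. Each window has 10 bases before the start and 20 from it.
Rplp2, chr7:141447641-141447670, plus strand: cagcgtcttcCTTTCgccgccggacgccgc
Rps21, chr2:180257369-180257398, plus strand: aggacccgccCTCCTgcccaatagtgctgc
Rpl38, chr11:114668570-114668599, plus strand: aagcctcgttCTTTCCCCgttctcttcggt
Rpl14, chr9:120571507-120571536, plus strand: ggccctctctCTTCTCgctgagcgccgcca
Rps2, chr17:24720053-24720082, plus strand: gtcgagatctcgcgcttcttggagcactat
Rpl3l, chr17:24727816-24727845, plus strand: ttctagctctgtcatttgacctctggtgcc
Rps2 and Rpl3l are both among the 37 with a run near the start, and such a match depends on how exactly the start is annotated. The DKO and Ctrl values of the first 4 were near each other, with Rps21 at 503 and 523 FPKM and Rpl38 at 231.8 and 231.9.

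Genes that build or serve the ribosome gave few calls by q as well. Of 40 ribosome biogenesis factors, none was called by Cuffdiff at a q of at most 0.05, where 7.36% of all tested genes were, none had an unadjusted p under 0.05, and the median log2 was 0.025. Npm1, the nucleolar chaperone of ribosome assembly, had 44.0 FPKM in DKO against 42.9 in Ctrl, Nop10 had 62.9 and 62.1, and Rrp1 had 63.9 and 63.8. Of 13 tested genes for RNA polymerase I, which makes ribosomal RNA, none was called and 1 had an unadjusted p under 0.05, with Polr1d at 73.8 and 71.0 FPKM. Of 36 initiation factors, 1 fell and none rose. This was Eif4e, the cap-binding protein, at 37.6 against 46.6 FPKM, a log2 of -0.31 (q = 0.0212 by Cuffdiff, from the authors' deposited table). Of 15 elongation, release and other TOP genes, 1 rose and none fell. This was Eef1a1, the elongation factor of most tissues, at 194.2 against 158.2 FPKM, a log2 of 0.30 (q = 0.0169 by Cuffdiff, from the authors' deposited table). Its muscle and nerve form Eef1a2 was at 886 and 983 FPKM and was not called, with a log2 of -0.15. Both of these paralog pairs, Eef1a1 with Eef1a2 and Rpl3 with Rpl3l, thus had a called rise in the widely expressed gene and a ratio below 0, without a call, in the muscle gene, a pairing set side by side after the values were seen. Of 21 regulators, 5 had an unadjusted p under 0.05, where 16.5% of all tested genes did. By q, 1 of them rose, Myc, a transcription factor that drives ribosome production, at 2.26 against 0.966 FPKM (log2 of 1.22, or 0.73 with 1 FPKM added to both, with q = 0.00158 by Cuffdiff, from the authors' deposited table). Eif4ebp1, the translation repressor that mTOR inactivates, was at 85.8 and 70.8 FPKM (q = 0.0686 by Cuffdiff, from the authors' deposited table), and Rheb, the activator of mTOR, at 67.3 and 72.6.

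Markers of some cell types differed between the genotypes beside these values. Cardiomyocyte markers had ratios below 0 in 12 of 13 with none called (median log2 of -0.21), and summed to 83434 FPKM in DKO and 97598 in Ctrl. Fibroblast markers had ratios above 0 in 12 of 12, of which 7 rose, and summed to 827 and 637 FPKM. Macrophage markers had ratios above 0 in 13 of 13, of which 10 rose, and summed to 428 and 278 FPKM. None of the 10 endothelial markers was called, and 8 had ratios below 0. Rpl3l and Eef1a2 had ratios below 0, as did 12 of 13 cardiomyocyte markers, 8 of 10 endothelial markers and 50 of the 83 tested members. Rpl3, Eef1a1 and Rps2 had ratios above 0, as did all fibroblast and macrophage markers and 33 of the 83 members. These genes were set beside the markers after their values were seen, and the part of cell makeup in these values was not tested. In whole ventricle, fewer cells of a type and less RNA per cell cannot be told apart.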

How the data were processed

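RNA from the ventricles of 8 mice was sequenced with single-end TruSeq libraries, per the labels' protocols. The authors used TopHat2 2.0.9, Cufflinks 2.1.1 and Cuffdiff 2.1.1 with build mm9, per the submitters' processing notes, while the sources used here give neither annotation nor settings. All 5 deposited tables hold 1 FPKM value per genotype, pooled by the authors, with p-values and q-values of the authors' Cuffdiff comparison, per the file headers. The deposited log2 fold change sets Ctrl over DKO, so log2 ratios were recomputed as DKO over Ctrl, and in the authors' subset of called genes the recomputed and deposited values, sign turned, were within 9.72e-06. Depth and animal spread are unknown, and no test was run beyond the authors'. A feature was called at a q of at most 0.05, and listed starts were turned to count from 1.

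Members, gene lists and tests were chosen with earlier results of these data known. Named members were the called ones, those with extreme or middle ratios or the highest levels, those at loci with small RNAs or joined genes, paralogs and untested members. From other lists, called genes and the highest levels were named, and further genes are marked in the text. Values of some single genes are not reported here. Shared 50-mers were counted on both strands over GENCODE M21 transcripts of non-overlapping genes. For each member the transcript nearest in length to the authors' main isoform was used, among its protein-coding or RefSeq-matched GENCODE transcripts. The 2 lengths differed by over 100 bases in 15 tested members, as for Rps20 at 3706 against 502 bases, which changes the share counted. The search was checked on simulated sequences. Start sequences are from RefSeq. Computations used Python 3.11.15, pandas 2.3.3, numpy 2.4.6, SciPy 1.17.1, Biopython 1.88 and matplotlib 3.10.9.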

Additional observations from a re-analysis of the deposited data

How the results depend on the processing

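The count of 2 called members became 1 (Rps2) at a q under 0.01 and 1 (Rps2) with a fold of at least 1.3. It stayed 2 with a mean FPKM of at least 1 and without loci that hold a short RNA. These settings could not change it, since all tested members pass that level and neither called locus holds a short RNA. It was also 2 in the tables of start site groups, coding sequences and isoforms, where Rps2 and Rpl3 have the same FPKM, so this is no further evidence. The members' median log2 ratio lay between -0.026 and -0.020 under all 8 alternatives, 1 of which, the members' own transcripts alone, was chosen after seeing the data. Rpl13a moved from -0.24 to -0.0031 with isoforms of at least 200 bases and to -0.038 with its main isoform, and Rpl3l from -0.19 to -0.12. Rpl30 moved from -0.33 to -0.18 with its own transcripts, chosen after seeing the data, while its main isoform, at -0.38, is Gm12191. The range of levels fell from 294-fold to 249-fold with Rps3 at its annotated isoform, also chosen after seeing the data. No called member changed direction, but these settings could hardly show a change. Rps2 and Rpl3 have 1 isoform each, so the isoform settings return the same ratio, and adding 1 FPKM to both groups cannot turn a sign. Animals could not be left out, and no paired analysis was possible because the tables hold 1 pooled value per genotype. Copies of a gene elsewhere in the genome, unknown depth and the absence of values per animal limit what single values show.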

Other observations

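The S6 kinase genes, whose symbols resemble those of the members, were looked at after their values were seen. Rps6ka2, a ribosomal S6 kinase of the MAPK pathway, fell from 14.4 FPKM in Ctrl to 10.7 in DKO, a log2 of -0.42 (q = 0.00158 by Cuffdiff, from the authors' deposited table). Rps6kb1, the kinase that phosphorylates Rps6 under mTOR, was at 10.3 FPKM in both, and Rps6kb2 was at 14.4 in DKO and 13.1 in Ctrl, neither of them called. Rps6ka1 was at 3.27 and 2.56 FPKM (q = 0.175 by Cuffdiff, from the authors' deposited table). The Rps6ka4 locus, which is joined with Mir5046, was at 66.5 and 9.62 FPKM and was not called.

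The locus that joins the pseudogene Rplp2-ps1 with Wdr89 had 1.35 FPKM in DKO against 2.46 in Ctrl (q = 0.0909 by Cuffdiff, from the authors' deposited table), and the pseudogene Rps19-ps3 was at 1.49 and 2.26 FPKM without a call.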
